A study of Mus musculus with 4 samples.

Results

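Metabotropic glutamate receptors are the G protein-coupled receptors through which glutamate modulates, rather than directly opens, its synapses. Among them 7 genes were followed here (Grm2, Grm3, Grm4, Grm5, Grm6, Grm7 and Grm8), of 32285 genes in the count matrices. The family was selected on measured values, namely the UMIs of Grm8 in the neuronal sub-cluster CART Neurons_1 of both genotypes. That contrast is therefore given below as a description, without a test. Hypothalamus was taken from adult male mice that were wild type (WT) or heterozygous for an arginine-to-cysteine point mutation of the thyroid hormone receptor TRα1 that lowers its affinity for the hormone (TRα1+m), and was profiled by single-nucleus RNA sequencing. Nuclei of 3 animals of one genotype made up a library. There were 4 libraries, with n = 2 per genotype, and each of 2 experimental repeats held a library of both genotypes. The mutation was in the germline and so in every cell of the animal, and no group received a treatment.

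Glutamate receptors of this family work as dimers and fall into groups by sequence and coupling. Group I, represented here by Grm5, couples to Gq and releases calcium from internal stores, mostly on the postsynaptic side. Group II (Grm2 and Grm3) and group III (Grm4, Grm6, Grm7 and Grm8) couple to Gi/o. Most of them lower cyclic AMP and damp transmitter release. Grm3 is also known from glia, Grm7 from the active zone of the presynaptic terminal, and Grm6 from ON bipolar cells of the retina. TRα1 is a nuclear receptor that binds DNA at thyroid hormone response elements, which are commonly built from copies of the half-site AGGTCA.

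The RefSeq promoter table (GRCm38.p6, 250 bases before to 50 bases after a transcription start) held entries for 5 of the 7 genes. The half-site AGGTCA, searched on both strands, occurred in 16.3% of the 32851 promoter entries. Among the receptor genes it occurred once, in 1 of the 3 Grm8 entries, on the opposite strand and downstream of the start. The spaced repeat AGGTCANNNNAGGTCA, also searched on both strands, occurred in 0.0152% of entries and in none of those of the receptor genes. The Grm8 entry with the match (chr6:28126377-28126676, minus strand) is shown because the results below turn on this gene. Capitals mark the half-site, and a match in these letters is not evidence of binding.
Grm8: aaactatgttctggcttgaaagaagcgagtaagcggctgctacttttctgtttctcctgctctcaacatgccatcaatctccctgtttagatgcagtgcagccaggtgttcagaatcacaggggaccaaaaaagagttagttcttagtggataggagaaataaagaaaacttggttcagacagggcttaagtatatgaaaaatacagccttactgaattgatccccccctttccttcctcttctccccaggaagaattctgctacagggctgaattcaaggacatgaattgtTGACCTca

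In the GENCODE vM21 annotation of GRCm38, Grm8 lay on chromosome 6 from 27275119 to 28135178 on the minus strand, and Grm7 on the same chromosome from 110645581 to 111567230 on the plus strand. Grm3 was on chromosome 5 (9485541 to 9725170), Grm5 on chromosome 7 (87584168 to 88134907), Grm2 on chromosome 9 (106643095 to 106656082), Grm6 on chromosome 11 (50850685 to 50866208) and Grm4 on chromosome 17 (27422387 to 27521403). Reads in introns were counted, so that long genes collect more unique molecular identifiers (UMIs). Levels are UMIs scaled to the total UMIs of a cell type and library (CPM, counts per 1000000), and are compared between genes only after division by the length of the gene with its introns. On that scale Grm5 (2.62 CPM per kb) and Grm7 (2.05) had the highest mean levels in the main neuronal cluster Neurons_1. Grm8 (0.577), Grm3 (0.540) and Grm2 (0.443) followed, and Grm4 (0.148) was lower. In oligodendrocytes Grm3 (5.24 CPM per kb) was above Grm7 (1.10). Genes on the opposite strand overlapped Grm2 (Gm28111), Grm6 (Gm12660) and Grm7 (Gm20387), and Gm20387 held 0.370 to 1.11 CPM in oligodendrocytes.

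The matrices gave 47260127 to 59112785 UMIs per library over 56386 annotated nuclei, with a median of 2904 to 4018 UMIs per nucleus. Of the barcodes, 44 to 64 were shared between any 2 libraries. Levels were ordered over 18 cell types that do not overlap, namely 12 neuronal sub-clusters and 6 glial or other clusters that held 10 nuclei or more in each library. The peptide genes Pomc, Npy, Agrp and Pmch were highest in the sub-clusters named for them. The list of 8 peptide genes also held Sst, Avp, Oxt and Hcrt, and Sst, Avp and Oxt are not given singly here. The list summed to 1182 to 2272 CPM in Somatostatin+ Neurons, beside 836 to 1401 in GABA Neurons and 1867 to 2945 in microglia and macrophages. Its sums were 2390 to 5730 CPM in AVasopressin Neurons, beside 1675 to 5870 in Glutamatergic Neurons_1. The sums thus do not check the somatostatin label or that of AVasopressin Neurons. In Oxytocin+, AVP Neurons the list summed to 11274 to 70021.5 CPM. CART Neurons_1 is named for Cartpt, whose levels there were 154 and 596 CPM in WT and 137 and 227 in TRα1+m. In the same libraries microglia and macrophages held 138 and 125 CPM in WT and 140 and 90.8 in TRα1+m. In repeat 1 the naming marker was thus at a like level in this glial cluster. Cartpt was higher on average in POMC/CART Neurons and MCH Neurons, and CART Neurons_1 had the highest mean of Slc17a6, the vesicular glutamate transporter of hypothalamic neurons. The sub-cluster labelled Orexin+ Neurons held 34.7 to 101 CPM of Hcrt, the gene for orexin, against 440 to 1506 in Glutamatergic Neurons_2, so its label went against its marker.

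**Figure D1:**
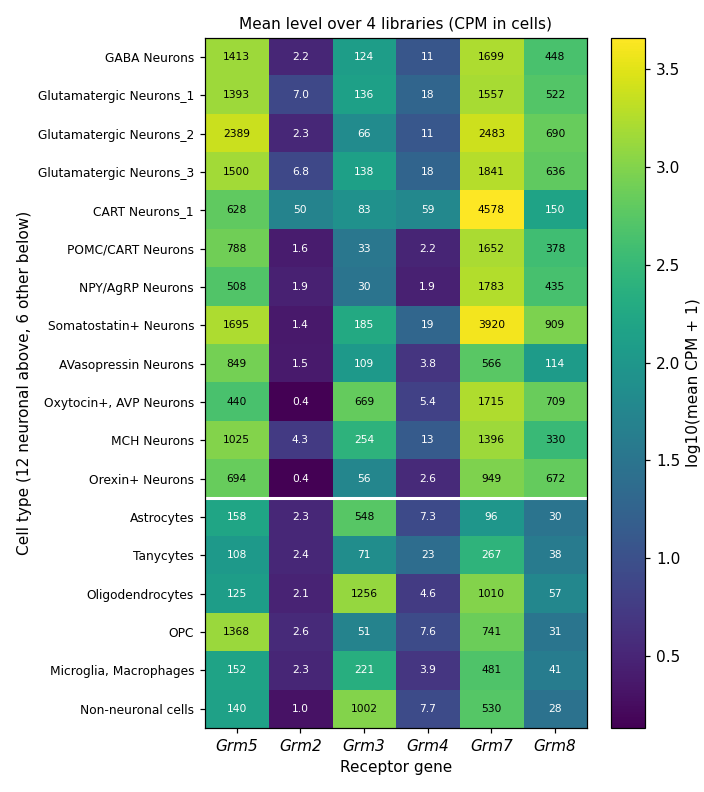
Mean level of each receptor gene (columns) in 18 cell types (rows), as CPM averaged over 4 libraries and printed in each cell, with colour on the scale log10(CPM + 1). Grm6 is left out because it had 1 UMI. Grm2, Grm4 and Grm7 peaked in CART Neurons_1, at 49.8, 59.5 and 4578 CPM, where Grm8 was at 150. The values are not divided by gene length, so they compare cell types within a gene and not genes.

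Grm5, the group I receptor, was a neuronal and OPC gene. Its highest mean level was in Glutamatergic Neurons_2 (2389 ± 118 CPM, SD, n = 4 libraries), with a range that did not overlap that of any other cell type. Somatostatin+ Neurons (1695 ± 85.8 CPM), Glutamatergic Neurons_3 (1500 ± 149), GABA Neurons (1413 ± 70.6), Glutamatergic Neurons_1 (1393 ± 63.5) and OPCs (1368 ± 182) followed, each overlapping its neighbour in this order. The lowest neuronal level was in Oxytocin+, AVP Neurons (440 ± 126 CPM). In the other glia it lay between 108 and 158 CPM. OPCs thus held a level within the range of the large neuronal sub-clusters, and 83.3 to 91.2% of OPC nuclei had a Grm5 UMI, against 13.2 to 21.4% of oligodendrocyte nuclei at a lower median depth (1493 to 1812 UMIs per nucleus against 2221 to 2984). With every nucleus thinned to 1000 UMIs the shares were 61.8 to 73.2% and 8.06 to 15.0%.

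The group II receptors differed in distribution. Grm3 was highest in oligodendrocytes (1256 ± 189 CPM, SD, n = 4) and in the small cluster of non-neuronal cells (1002 ± 129), whose ranges overlapped. Next came Oxytocin+, AVP Neurons (669 ± 138 CPM) and astrocytes (548 ± 49.5), which also overlapped. Among neurons Grm3 spanned a wide range, from 669 CPM in the oxytocin and vasopressin neurons to 32.6 ± 6.60 in POMC/CART Neurons and 29.8 ± 8.18 in NPY/AgRP Neurons. Tanycytes, which the annotation places in the astrocyte cluster, held 70.7 ± 20.4 CPM, and OPCs 50.6 ± 21.0. Grm2, by contrast, peaked in CART Neurons_1 and was low elsewhere relative to that peak. Its level in CART Neurons_1 was 34.8 and 73.3 CPM in WT and 33.3 and 58.0 in TRα1+m. The next cell type, Glutamatergic Neurons_1, held 4.80 to 9.53 CPM. After division by gene length, Grm2 was near Grm3 in Neurons_1 (0.443 against 0.540 CPM per kb) and below it in oligodendrocytes.

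Among the group III receptors, Grm4 shared with Grm2 its peak in CART Neurons_1. Grm4 levels there were 44.8 and 81.2 CPM in WT and 44.4 and 67.4 in TRα1+m, followed by tanycytes at 23.4 ± 15.4 (SD, n = 4). At least 1 Grm4 UMI was found in 15.0 to 32.8% of CART Neurons_1 nuclei and in 0.571 to 0.991% of oligodendrocyte nuclei. The library of higher depth per nucleus in each genotype, that of repeat 2, had the higher Grm2 and Grm4 levels of its genotype in CART Neurons_1. The part of depth in this was not tested.

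Grm7 was the most widely spread of the family. Its highest mean level was in CART Neurons_1, with 4878 and 4582 CPM in WT and 4590 and 4260 in TRα1+m, followed by Somatostatin+ Neurons (3920 ± 459 CPM, SD, n = 4) and Glutamatergic Neurons_2 (2483 ± 120). Neighbouring ranges among these 3 did not overlap. The 6 sub-clusters from Glutamatergic Neurons_3 to Glutamatergic Neurons_1 lay between 1557 and 1841 CPM, each overlapping the next. AVasopressin Neurons had the lowest neuronal level, 566 ± 76.7 CPM. In CART Neurons_1 99.6 to 100% of nuclei had a Grm7 UMI, and 96.5 to 98.6% after thinning to 1000 UMIs. Oligodendrocytes (1010 ± 502 CPM) and OPCs (741 ± 45.0) held more Grm7 than astrocytes (96.0 ± 20.2), the cell type with the least.

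The mean Grm8 level of each neuronal sub-cluster was above those of the glial clusters. Its highest mean was in Somatostatin+ Neurons (909 ± 106 CPM, SD, n = 4), whose range lay above that of Oxytocin+, AVP Neurons (709 ± 56.4). Glutamatergic Neurons_2 (690 ± 34.9 CPM), Orexin+ Neurons (672 ± 171) and Glutamatergic Neurons_3 (636 ± 27.5) followed with overlapping ranges. At the low end of the neurons stood MCH Neurons (330 ± 42.8), CART Neurons_1 (150 ± 110, a mean over genotypes that differed) and AVasopressin Neurons (114 ± 37.2). MCH Neurons also held 629 to 3104 CPM of endothelial and mural markers and 370 to 742 CPM of astrocyte markers, above every other neuronal sub-cluster ordered here, and the part of such RNA in its receptor levels was not tested. In the glial clusters the mean was between 28.0 and 57.2 CPM. Grm6 had 1 UMI among 213616634, in a nucleus of Glutamatergic Neurons_2.

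Likeness of pattern was measured as the correlation of log2(mean CPM + 1) over 16 cell types, among 13813 genes with at least 10 CPM in some cell type. The 16 points share their libraries and differ in depth, and no test was made. The genes most like Grm8 were Cdon (r = 0.97), Pdlim7 (0.95) and Rnf112 (0.95). Those most like Grm2 were Cpne9 (0.95), the dopamine receptor gene Drd3 (0.93) and Fndc5 (0.91). Grm5 was followed most closely by Fam189a1 (0.93), Shisa7 (0.92) and B230217J21Rik (0.92), Grm7 by Ncapd3 (0.91), Mical3 (0.90) and Ank3 (0.89), Grm3 by Psmd5 (0.86), Amer2 (0.83) and Eapp (0.81), and Grm4 by St6gal2 (0.85), Vsnl1 (0.84) and St8sia5 (0.84). Within the family the highest correlations were those of Grm2 with Grm4 (r = 0.78) and of Grm7 with Grm8 (r = 0.70). The lowest was that of Grm3 with Grm5 (r = -0.55). This order depended on the measure. By Spearman correlation Grm7 with Grm8 (0.68) was above Grm2 with Grm4 (0.63). The lowest pair was then Grm2 with Grm8 (-0.36), beside -0.32 for Grm3 with Grm5.

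The first comparison asked how Grm8 stood in CART Neurons_1 of both genotypes. Its level was 220 and 267 CPM in the WT libraries of repeats 1 and 2, from 374 and 673 UMIs. In TRα1+m it was 55.5 and 56.8 CPM, from 80 and 96 UMIs. The groups did not overlap, and the WT mean was 4.34 times that of TRα1+m. In all other Neurons_1 nuclei together Grm8 was level, with 497 and 520 CPM in WT and 512 and 516 in TRα1+m. The fitted log2 fold change (TRα1+m minus WT) in CART Neurons_1 was -2.16 with a standard error of 0.18. The fitted difference between that change and the change in other neurons was -2.14 with a standard error of 0.12. These are the values on which the gene was chosen, and no p is given for them.

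**Figure D2:**
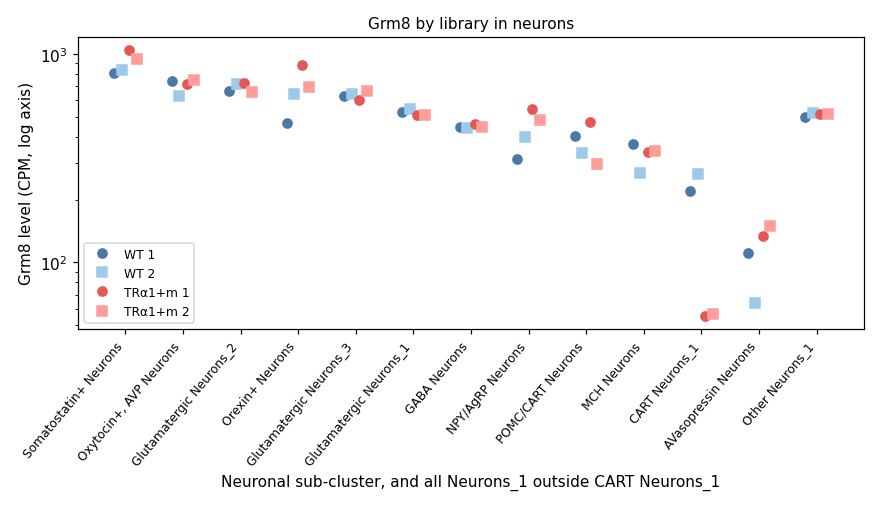
Grm8 level (CPM, log axis) in each library of 12 neuronal sub-clusters, ordered by mean, and in all Neurons_1 nuclei outside CART Neurons_1. Blue symbols are WT and red TRα1+m, with circles for repeat 1 and squares for repeat 2. In CART Neurons_1 the WT libraries are at 220 and 267 CPM and the TRα1+m libraries at 55.5 and 56.8 CPM.

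The WT level in CART Neurons_1 already lay at the low end of neurons, between AVasopressin Neurons and MCH Neurons (269 to 369 CPM). The TRα1+m level was below that of AVasopressin Neurons in every library (64.0 to 149 CPM). It was within the range of oligodendrocytes of both genotypes together (43.1 to 73.5 CPM). Oligodendrocytes of the TRα1+m libraries alone were above it, and the other glial clusters had lower means (28.0 to 40.6 CPM). The share of CART Neurons_1 nuclei with a Grm8 UMI was 33.1% (95% exact binomial interval 28.6 to 37.8) and 47.0% (42.4 to 51.6) in WT, and 13.2% (9.93 to 17.0) and 15.3% (11.7 to 19.5) in TRα1+m, where the intervals cover counting error only. Median depth was 3640 and 4977 UMIs per nucleus in WT and 3565 and 4736 in TRα1+m. Among oligodendrocytes, which should hold little of the gene, the share was 6.38 to 10.4% at median depths of 1493 to 1812 UMIs. After thinning to 1000 UMIs the shares were 12.5 and 18.8% in WT CART Neurons_1, 4.74 and 4.90% in TRα1+m CART Neurons_1, and 3.83 to 6.85% in oligodendrocytes. At equal depth the TRα1+m share was thus within the range of oligodendrocytes of both genotypes together.

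The lower level was seen in the number of nuclei with Grm8 and in the number of its UMIs per nucleus. Nuclei with 3 or more Grm8 UMIs numbered 55 of 423 and 98 of 479 in WT, and 10 of 380 and 10 of 347 in TRα1+m. The highest count in a nucleus was 10 and 19 in WT against 5 and 6 in TRα1+m. Nuclei with and without a Cartpt UMI were alike in this. In repeat 1 Cartpt was about as high in microglia and macrophages, so there the split does not show CART identity. Without Cartpt, the Grm8 level was 250 and 357 CPM in WT and 57.7 and 67.2 in TRα1+m. With Cartpt, it was 191 and 252 CPM in WT and 51.8 and 48.0 in TRα1+m. Among nuclei with a Slc17a6 UMI it was 225 and 273 CPM against 54.6 and 58.3.

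CART Neurons_1 was not uniform for Grm8, so the make-up of the sub-cluster was set beside its level. In the WT library of repeat 1 alone, nuclei with 3 or more Grm8 UMIs (55) were compared with those with none (283), and the 10 genes with the largest ratio in each direction were taken, a choice made after the data were seen. Genes higher in the Grm8 nuclei included Htr1f, a serotonin receptor, Epha7, an ephrin receptor, and Zfp804b. Genes higher in the nuclei without Grm8 included Chrm3, a muscarinic receptor, Nos1, neuronal nitric oxide synthase, Fign, Asic2 and Prkg1. Each nucleus was then placed by whichever set gave it more UMIs. The class of the Grm8 set made up 15.6 and 23.2% of CART Neurons_1 in WT and 21.6 and 24.2% in TRα1+m. Within that class Grm8 was at 590 CPM in the WT library that was not used for the choice, and at 142 and 105 CPM in TRα1+m. In the class of the opposite set it was at 157 CPM in the same WT library and at 29.4 and 40.7 CPM in TRα1+m. The classes are ranges of a score, and 36 to 45 nuclei per library lay within 2 UMIs of the dividing line. Summed over the 10 genes of the Grm8 set the level was 744 and 962 CPM in WT and 902 and 978 in TRα1+m, with 0 of its genes lower and 2 higher in both TRα1+m libraries than in both of WT. The opposite set summed to 5338 and 5029 CPM in WT and 4620 and 4384 in TRα1+m, with 3 of its 10 genes lower by the same rule and 0 higher. Most of that sum was Asic2, among the lower genes at 3126 and 3315 CPM in WT and 2587 and 2645 in TRα1+m. The part of Asic2 in the class shares was not tested. The sets were found through Grm8 itself, so the values within the classes describe where its UMIs lay and are no independent support for the difference.

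**Figure D3:**
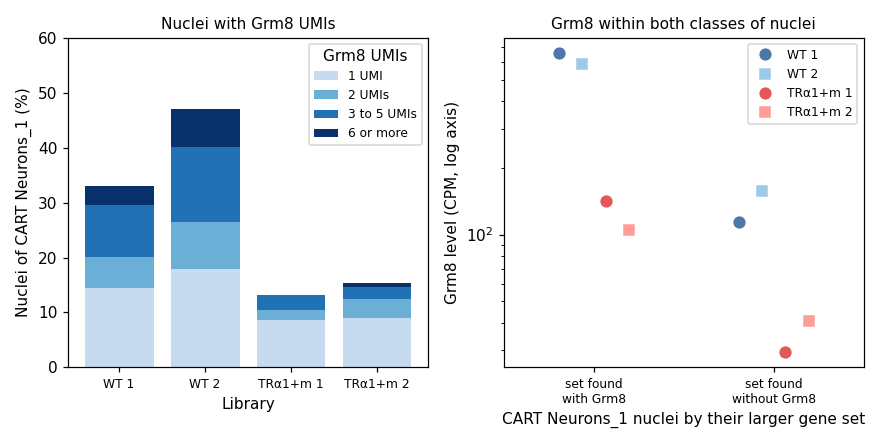
Left, percentage of CART Neurons_1 nuclei with 1, 2, 3 to 5, and 6 or more Grm8 UMIs in each library, as stacked bars. Right, Grm8 level (CPM, log axis) in nuclei that had more UMIs of the gene set found with Grm8 or of the set found without it, by library. TRα1+m points lie below WT points in both classes, at 142 and 105 CPM against 590 CPM in the WT library of repeat 2 for the first.

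The other receptor genes gave no call in CART Neurons_1. The interaction of genotype with CART Neurons_1 against other neurons was tested in edgeR (library as block), where 0.205% of 18981 genes were called at an adjusted p of 0.05. Of the 5 other receptor genes that passed the filter on low counts, 0 were called, and 2 had an unadjusted p under 0.05, beside 5.34% of all genes (edgeR). Those 2 were Grm2 (difference of log2 changes -0.54, standard error 0.24, adjusted p 0.799) and Grm4 (-0.43, standard error 0.18, adjusted p 0.792). The Grm7 difference was -0.04 with a standard error of 0.08. DESeq2 also called 0 of them, though it gave no adjusted p for Grm2, Grm3 and Grm4.

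Genotype was tested in edgeR for every receptor gene in each cell type, apart from Grm8 in CART Neurons_1, with adjustment over all genes of a cell type. The main cluster Neurons_1 includes the nuclei of CART Neurons_1. Over the 6 main clusters 29 of 42 pairs of gene and cluster passed the filter and 0 were called, against 0.0192% of all genes called. At an unadjusted p under 0.05 there were 6 such pairs, beside 2.32% of all genes. DESeq2 called 1 pair, beside 0.109% of all genes, and had 4 at an unadjusted p under 0.05, beside 0.895%. Over the 14 sub-clusters tested, 69 of 97 pairs passed the filter and 0 were called by either tool, against 0.0031% of all genes in edgeR and 0.00434% in DESeq2. At an unadjusted p under 0.05 there were 6 pairs in edgeR, beside 1.72% of all genes, and 2 in DESeq2, beside 0.368%. The 2 repeats differed strongly, however. Blocking on the repeat called 6 pairs in the main clusters (1 higher and 5 lower in TRα1+m, against 1.23% of all genes) and 2 in the sub-clusters (both lower, against 0.54%). The block leaves 1 residual degree of freedom, so those calls rest mostly on spread pooled across genes. With the same block in DESeq2 only Grm7 in oligodendrocytes was called among these pairs. Adjusted p-values there were 0.702 for Grm8 in oligodendrocytes and 0.366 for Grm7 in non-neuronal cells, and 1.00 for Grm7 and Grm4 in the astrocyte cluster, Grm7 in tanycytes and Grm5 in OPCs. The replicate is a pool of animals, and the pools of a genotype came from different repeats. Without the block, p-values thus measure the spread between pools and between repeats together.

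**Figure D4:**
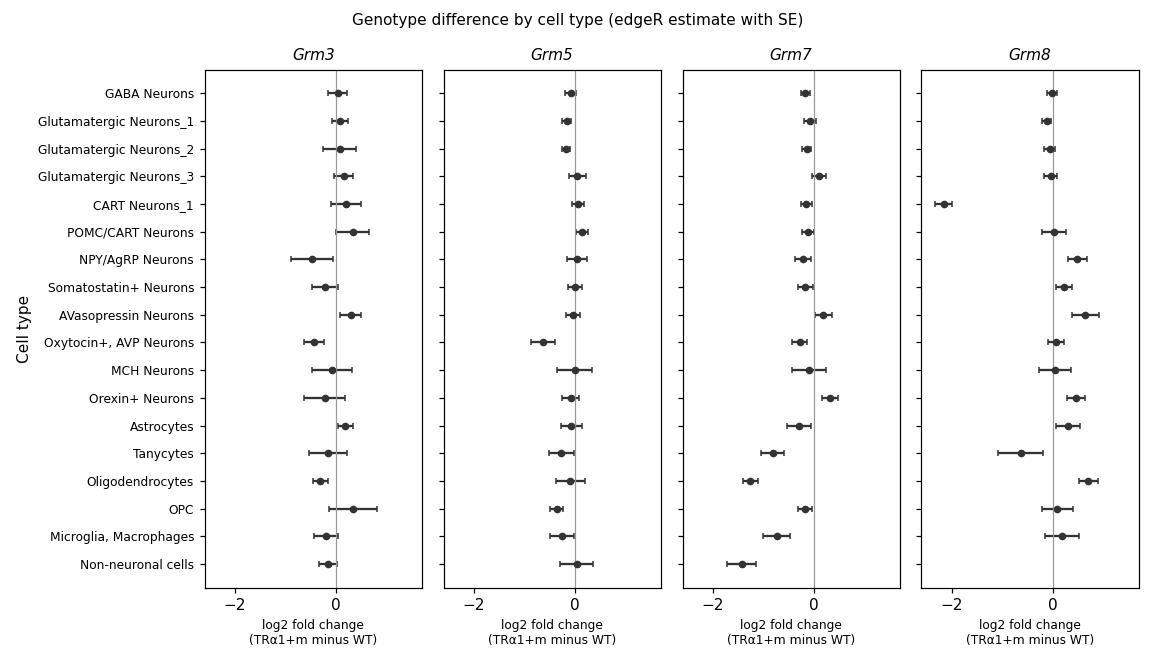
Log2 fold change (TRα1+m minus WT) of Grm3, Grm5, Grm7 and Grm8 in 18 cell types, as the edgeR estimate with its standard error as a bar, where the gene passed the filter. Most neuronal estimates lie near 0. Grm8 in CART Neurons_1 (-2.16) and Grm7 in oligodendrocytes (-1.26) and non-neuronal cells (-1.43) stand apart.

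Grm7 in oligodendrocytes was the largest of these differences relative to its error. Its level was 1472 and 1417 CPM in WT (3816 and 3845 UMIs) and 570 and 581 CPM in TRα1+m (1541 and 1467 UMIs), with no overlap. The log2 fold change was -1.26 with a standard error of 0.15 (edgeR, adjusted p 0.0731, n = 2 per genotype), where 0.103% of genes in oligodendrocytes were called. Blocking on the repeat gave an adjusted p of 3.42e-09 and 4.35% of genes were called, and in DESeq2 the adjusted p was 0.00304. Within repeat 1 the log2 ratio of levels was -1.37 and within repeat 2 it was -1.29. In Neurons_1 Grm7 was at 1938 and 1959 CPM in WT and 1861 and 1810 in TRα1+m, a log2 fold change of -0.15 with a standard error of 0.07 (edgeR, adjusted p 1.00). The difference between the 2 changes was -1.14 with a standard error of 0.18 and passed the threshold (edgeR interaction, adjusted p 0.0488), where 0.182% of 18720 genes were called. In DESeq2 that adjusted p was 3.01e-05, and 1.25e-05 with the repeat as block. In edgeR it was 1.26e-05 with the block, where 352 of 18720 genes were called, and 3.75e-05 without the filter. With RLE factors it was 0.0555, and 0.133 in the bias-adjusted fit. Without either WT library it was 1.00, and without either TRα1+m library 0.0121 and 5.1e-05.

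The lower Grm7 level was not carried by a few nuclei. A Grm7 UMI was found in 69.3 and 74.5% of nuclei in WT and in 46.0 and 48.2% in TRα1+m. After thinning to 1000 UMIs these shares were 60.3 and 59.97% against 36.2 and 34.5%, beside 6.64 to 10.7% in astrocytes. Nuclei with 3 or more UMIs made up 31.0 and 39.3% in WT and 10.4 and 13.4% in TRα1+m. The 10 nuclei with most Grm7 held 5.08 and 5.18% of its UMIs in WT and 6.81 and 7.57% in TRα1+m. Oligodendrocyte markers (Mag, Mobp and Mog, 3 of 3 present) summed to 2292 and 3357 CPM in WT and 2077 and 3706 in TRα1+m, a difference between repeats. Neuronal markers (Syt1, Snap25 and Rbfox3, 3 of 3 present) summed to 654 and 699 CPM in WT and 650 and 436 in TRα1+m. In oligodendrocyte nuclei without a UMI of these neuronal genes, an alternative chosen after the data were seen, the Grm7 log2 fold change was -1.24 (edgeR, adjusted p 0.0494). The tanycyte markers Rax, Col23a1 and Vim summed to 36.7 and 29.1 CPM in WT oligodendrocytes and 193 and 194 in TRα1+m oligodendrocytes. Col23a1 made up most of the TRα1+m sums, at 158 and 169 CPM against 11.2 and 11.1 in WT. Rax was at 3.70 and 2.38 CPM in TRα1+m, and Vim is not given singly here. The part of these genes in the Grm7 difference was not tested.

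**Figure D5:**
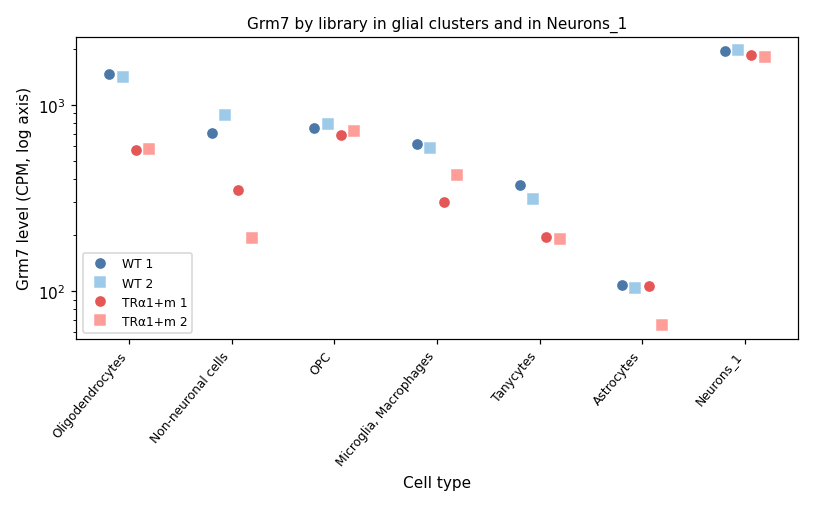
Grm7 level (CPM, log axis) in each library of the glial clusters, the non-neuronal cells and Neurons_1. Blue symbols are WT and red TRα1+m, with circles for repeat 1 and squares for repeat 2. Oligodendrocytes are at 1472 and 1417 CPM in WT and at 570 and 581 CPM in TRα1+m, while the Neurons_1 points lie between 1810 and 1959.

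In other glia Grm7 had negative estimates too, as it had at a smaller size in Neurons_1. Its level in the non-neuronal cells, 34 to 80 nuclei per library with oligodendrocyte and astrocyte markers side by side, was 702 and 879 CPM in WT and 347 and 193 in TRα1+m. The log2 fold change there was -1.43 with a standard error of 0.28 (edgeR, adjusted p 0.327, and 1.3e-07 with the block). It was -0.75 after thinning to 1000 UMIs, -2.04 with equal numbers of nuclei and -0.89 in nuclei without neuronal markers. In tanycytes it was 369 and 312 CPM in WT and 195 and 191 in TRα1+m, a log2 fold change of -0.82 with a standard error of 0.22 (edgeR, adjusted p 1.00, and 0.000491 with the block). In microglia and macrophages it was 615 and 584 CPM against 303 and 421, a log2 fold change of -0.74 with a standard error of 0.27 (edgeR, not called with or without the block). The astrocyte cluster as a whole, which includes the tanycytes, gave -0.54 with a standard error of 0.22 (edgeR, adjusted p 1.00, and 0.00417 with the block). Its astrocyte part alone gave -0.29 with a standard error of 0.25. The log2 ratio of levels in that part was -0.01 within repeat 1 and -0.66 within repeat 2. OPCs were at 755 and 793 CPM in WT and 686 and 728 in TRα1+m, with a log2 fold change of -0.17 and a standard error of 0.14.

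Oligodendrocyte RNA was present in these clusters. The 3 oligodendrocyte markers summed to 185 and 177 CPM in WT tanycytes and 155 and 167 in TRα1+m tanycytes. In microglia and macrophages the sums were 293 and 288 CPM in WT and 245 and 198 in TRα1+m, and in the non-neuronal cells 1269 and 1580 against 1306 and 2004. In tanycytes and microglia both TRα1+m sums were thus below both WT sums. In nuclei without a UMI of these markers, a choice made after the data were seen, the Grm7 log2 fold change was -0.92 in tanycytes (standard error 0.25), -0.52 in microglia and macrophages (standard error 0.28) and -0.54 in the astrocyte cluster (standard error 0.24), with none called in edgeR. In nuclei without a neuronal marker UMI, which may hold oligodendrocyte markers, the Grm7 value was -0.99 in tanycytes and -0.64 in the astrocyte cluster. In microglia and macrophages it was -1.115 there (standard error 0.38), against -0.74 in all nuclei. These estimates moved with the choice of markers, and nuclei without oligodendrocyte marker UMIs may still hold oligodendrocyte RNA. The part of such RNA in the Grm7 differences was not tested.

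Grm8 in oligodendrocytes lay the other way. Its level was 46.3 and 43.1 CPM in WT and 73.5 and 65.7 in TRα1+m, with no overlap, a log2 fold change of 0.70 with a standard error of 0.19 (edgeR, adjusted p 0.446, and 0.00477 with the block). At 6.38 to 10.4% of nuclei with a UMI this is near the level at which RNA from other nuclei could contribute, and that part was not tested. Grm3, the leading receptor of oligodendrocytes, was at 1427 and 1411 CPM in WT and 1067 and 1122 in TRα1+m, which also did not overlap. Its log2 fold change of -0.31 (standard error 0.14, edgeR adjusted p 1.00) was not called with or without the block. In astrocytes Grm3 was at 542 and 485 CPM in WT and 605 and 560 in TRα1+m.

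Of the remaining glial values, Grm5 in OPCs was at 1563 and 1479 CPM in WT and 1243 and 1187 in TRα1+m. The log2 fold change of -0.36 (standard error 0.13) did not pass in edgeR (adjusted p 1.00) and passed with the block (0.0133). Grm4 in the astrocyte cluster was at 10.6 and 18.0 CPM in WT and 4.68 and 7.04 in TRα1+m. Its log2 fold change of -1.28 (standard error 0.38, edgeR adjusted p 1.00) also passed only with the block (0.00255). The Grm4 level in that cluster rested on 202 UMIs over all 4 libraries.

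In neurons other than CART Neurons_1 no receptor gene was called in edgeR over all 4 libraries, with or without the block. Grm7 log2 fold changes over the other 11 sub-clusters lay between -0.28 in Oxytocin+, AVP Neurons and 0.31 in Orexin+ Neurons, and those of Grm5 between -0.64 in Oxytocin+, AVP Neurons and 0.14 in POMC/CART Neurons. Those of Grm3 lay between -0.47 in NPY/AgRP Neurons and 0.33 in POMC/CART Neurons. Grm5 in Oxytocin+, AVP Neurons was at 530 and 530 CPM in WT and 435 and 264 in TRα1+m (edgeR, standard error 0.24, adjusted p 1.00). That spread within TRα1+m was wide, and without the TRα1+m library of repeat 1 the log2 fold change was -1.08 (edgeR, adjusted p 0.0212), and without that of repeat 2 it was -0.34. Grm8 was above WT in both TRα1+m libraries of AVasopressin Neurons (110 and 64.0 CPM against 134 and 149), NPY/AgRP Neurons (313 and 401 against 545 and 481) and Orexin+ Neurons (468 and 640 against 884 and 696). Log2 fold changes there were 0.65, 0.49 and 0.46 with standard errors of 0.27, 0.18 and 0.18, and none passed (edgeR, adjusted p 1.00 in each). Single libraries moved these values. In AVasopressin Neurons the change was 1.15 without the WT library of repeat 1, 0.29 without that of repeat 2, 1.08 after thinning and 0.20 in nuclei without glial markers. In Orexin+ Neurons it was 0.29 without the WT library of repeat 1, 0.24 without the TRα1+m library of repeat 1 and 0.29 in nuclei without glial markers. Grm2 and Grm4, with 113 and 299 UMIs there over all libraries, were both higher in TRα1+m in Glutamatergic Neurons_3. Grm4 was at 12.5 and 15.6 CPM in WT and 21.4 and 21.8 in TRα1+m there (log2 fold change 0.58, standard error 0.24). Grm2 was at 4.17 and 6.28 CPM against 7.52 and 9.10 (0.63, standard error 0.34), and neither passed in edgeR.

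Genes around the receptors were counted from a list of 50 in 6 branches, namely glutamate supply and clearance, turnover of the co-transmitter NAAG, the Gq branch, the Gi/o branch, scaffolds, and desensitisation. Over the main clusters 254 pairs of gene and cluster passed the filter and 0 were called in edgeR, beside 0.0192% of all genes. At an unadjusted p under 0.05 there were 9 pairs in edgeR, beside 2.32% of all genes. DESeq2 called 0 pairs, beside 0.109% of all genes. With the block 6 of the 48 genes that passed in oligodendrocytes were called, beside 4.35% of all genes there, and they are named here after their values were seen. None was called in the other clusters, and DESeq2 with the block called 1 in all, Grasp in oligodendrocytes, where it called 148 of 12630 genes. Glul, glutamine synthetase, was at 307 and 386 CPM in WT and 217 and 123 in TRα1+m (log2 fold change -0.96, standard error 0.28 without the block). Plcb4, which like the listed gene Plcb1 is a phospholipase of the Gq branch, was at 94.5 and 103 CPM against 55.4 and 61.8. The calcium channel gene Itpr1 was at 57.1 and 71.5 CPM against 36.6 and 43.6. Grk5, a receptor kinase, was at 35.9 and 32.4 CPM against 22.2 and 15.4. Higher in TRα1+m were the glutamate transporter gene Slc1a3 (247 and 207 CPM against 359 and 267) and Grasp, the scaffold tamalin that binds group I receptors (2.70 and 5.16 against 13.3 and 23.4). The median log2 fold change of the list in oligodendrocytes was -0.18, beside 0.01 over all genes tested there, and nothing particular to the list is read from it.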

How the data were processed

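Cell Ranger 5.0.1 was used by the authors for alignment to mm10 (GRCm38) and for UMI counting with introns, and Seurat for filtering and annotation. The deposited matrices hold raw counts, which were summed per library over each annotated cluster and sub-cluster and expressed as CPM. The receptor genes and gene lists were chosen with earlier results of these data known. Genotype was tested in edgeR 4.0.16 (R 4.3.3) on the sums, with filterByExpr, TMM factors, robust two-sided quasi-likelihood F-tests and Benjamini-Hochberg adjustment over the genes of a cell type, at 0.05. Standard errors are the size of the log2 fold change over the root of F. DESeq2 1.42.0, RLE factors, no filter, a bias-adjusted fit, equal numbers of nuclei, thinning to 1000 UMIs, left-out libraries and the repeat as a block were alternatives. A further one left out nuclei with foreign markers, namely neuronal markers in non-neuronal clusters and glial markers in neurons. The study's methods place a library of both genotypes in each repeat. Differences between repeats correlated between genotypes across genes in 20 of 20 cell types (r = 0.10 to 0.84, median 0.57). The fit was tested on simulated data that held no difference between repeats, so that test does not bear on the choice of the block. Named genes were the 7 receptors, listed genes past the threshold, and the 3 genes of most similar pattern per receptor. Python 3.11.15 was used for levels and shares. Clustering and doublet scores were not repeated. An oligodendrocyte marker of the original list, and the values that need it, are not reported here.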

Additional observations from a re-analysis of the deposited data

Results flagged for a closer look

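In the main fit the genotype difference of Grm7 was not the same in oligodendrocytes and in Neurons_1, narrowly past the threshold. The log2 fold change was -1.26 in oligodendrocytes and -0.15 in Neurons_1, and the difference between them was -1.14 with a standard error of 0.18 (edgeR interaction, adjusted p 0.0488, lower in both TRα1+m libraries of oligodendrocytes). It was singled out because the test of the difference itself passed the threshold, in a fit added after the data were seen. The same edgeR interaction did not pass with RLE factors (adjusted p 0.0555) or in the bias-adjusted fit (adjusted p 0.133). It passed in edgeR with the repeat as block (adjusted p 1.26e-05) and without the filter (adjusted p 3.75e-05). In DESeq2 the interaction passed too (adjusted p 3.01e-05, and 1.25e-05 with the block).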

How the results depend on the processing

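With n = 2 pools per genotype, no exact permutation test of a single value could go below 0.333, so tests rest on spread pooled across genes. The pairing of the repeats as a block raised the number of receptor calls in main clusters from 0 to 6, in sub-clusters from 0 to 2, and among the listed genes from 0 to 6. Among all genes of oligodendrocytes, 13 of 12630 were called in the main fit and 550 of 12630 with the block. Without the filter 120 of 21458 were called there, and after thinning 15 of 11319. DESeq2 called 75 of 12630, and 148 with the block. With equal numbers of nuclei 13 of 12371 were called, and 2 of 2609 in non-neuronal cells. In oligodendrocyte nuclei without foreign markers 16 of 9985 were called. Receptor calls in main clusters numbered 1 each with DESeq2, equal numbers of nuclei, thinning, DESeq2 with the block and nuclei without foreign markers. They numbered 2 without the filter on low counts. They ranged from 0 to 2 with a library left out, and those in sub-clusters from 0 to 1. Listed genes called numbered 1 without the filter and 1 in DESeq2 with the block, and 0 to 2 with a library left out. The Grm8 difference in CART Neurons_1 was -1.89 after thinning. As a log2 ratio of shares it was -1.49 for 1 or more UMIs, -1.70 for the same after thinning, and -2.601 for 3 or more UMIs. Its range with a library left out was -2.26 to -2.06. The Grm7 interaction was -1.11 with RLE factors and -1.14 in the bias-adjusted fit, no longer past the threshold in either, and -1.23 to -0.99 with a library left out. It stayed past the threshold with the block, without the filter, and in DESeq2 with or without the block. Of 18 genes most alike in pattern, 3 were shared with a Spearman ranking. DESeq2 with the block, the Grm7 interaction with oligodendrocytes and, for counts of calls and single genotype differences, nuclei without foreign markers were chosen after seeing the data. The Grm7 interaction in CART Neurons_1, near 0 and not called, was 0.00686 without the WT library of repeat 1, against -0.04 in all libraries. The cause of these shifts was not tested.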

Other observations

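The cluster Neurons_2 was not tested because 852 of its 864 nuclei came from the TRα1+m library of repeat 2. In that library Grm5 was at 1403 CPM, Grm8 at 827, Grm7 at 489, Grm4 at 108, Grm3 at 60.8 and Grm2 at 23.5. Grm4 was thus at a higher level there than the 44.4 to 81.2 CPM of CART Neurons_1, and Grm7 at a lower level than the 1810 to 1959 CPM of Neurons_1, in a single library without replicates.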
